A study of Saccharomyces cerevisiae with 24 samples.

Results

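The large-subunit ribosomal protein genes with introns were followed here through splicing during transcription in budding yeast. They were 42 listed genes, taken by name from the 284 genes of a long-read table of spliced fractions, and all 42 were present in it. They form 20 pairs of duplicated genes (copies A and B, as in RPL6, RPL13, RPL16, RPL22 or RPL26) together with RPL39 and RPP1B, and each had 1 intron found in the alignments. The study asked how proteins that bind nascent transcripts affect splicing and the ends of transcripts, and withdrew Nab2, a nuclear poly(A)-binding protein, by anchor-away. In anchor-away, rapamycin joins a protein carrying FRB to a ribosomal protein carrying FKBP12, which leaves the nucleus with the tagged protein. The 24 samples comprised 20 libraries of Single Molecule Intron Tracking (SMIT, a short-read assay of 3' ends at chosen genes) and 4 nanopore long-read libraries.

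Control-AA was MATa and carried the anchor RPL13A-2xFKBP12::LoxP-TRP1-LoxP together with tor1-1 and the disruption fpr1Δ::loxP-LEU2-LoxP. Nab2-AA had these 3 alleles, with NAB2-FRB::HIS added, and was MATα, so mating type differed along with the tag. Both strains thus carried the 2xFKBP12 anchor on RPL13A, itself one of the 42 genes, and both received rapamycin at 1 ug/ml. The long reads came from 2 libraries of each strain at 10 min, and SMIT covered 1 library of each strain at 0, 10 and 30 min. The deletion series was MATa his3Δ1 leu2Δ0 met15Δ0 ura3Δ0, alone or with npl3Δ, gbp2Δ, rtt103Δ, tho2Δ, pub1Δ or htz1Δ (each ::KanMX), untreated, with 2 SMIT libraries per strain. All cells grew in YPAD at 30°C into log phase, and RNA was taken from chromatin and depleted of poly(A) RNA with oligo(dT) beads. No label ties replicate libraries to cultures of their own, so every p-value here reflects only how these libraries vary, which may be technical variation. The deletions were taken from the labels and were not checked here.

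Ribosomal protein genes hold a large share of the introns of the budding yeast genome and are transcribed at very high rates in growing cells. Most are present as pairs of near-identical genes left by an ancient genome duplication, and the introns of the copies have diverged much more than their coding sequences. An intron is removed by the spliceosome while RNA polymerase is still near or on the gene. The transcript is then cut and polyadenylated past the coding end, and polymerase that passes that point produces readthrough RNA that can reach the next gene.

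The long-read files held 10013 and 14202 alignments for Control-AA and 32054 and 11436 for Nab2-AA, on the build sacCer3. The 42 introns were spanned by 2000 and 2881 reads in Control-AA and by 6214 and 2283 in Nab2-AA, between 46 reads (RPL39) and 1280 reads (RPL16B) per gene over the 4 libraries. The shares given below differed from those of the authors' deposited table by a median of 1.19 percentage points over 168 values, and the largest gap was 15.9 points in RPL42A in the first Control-AA library, where 7 reads spanned the intron. Copies of a pair share most of their coding sequence, so a read can be placed on the wrong copy. Of the spliced reads, 0.741% had a mapping score under 60, the highest in the files, against 0.1% of the unspliced reads. The spliced reads with such scores reached 12.8% in RPL42A, 10.3% in RPL14A, 6.90% in RPL13A and 5.23% in RPL42B, and these genes are uncertain for that reason. Intervals for single libraries cover counting error only, because copies made by PCR are not independent molecules.

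Introns of these genes ranged from almost fully spliced to almost fully retained in Control-AA. The mean share of spanning reads that were spliced lay above 90% in 11 genes, between 50% and 90% in 26 and below 50% in 5. The 5 were RPL18B, RPL22B, RPL33B, RPL37A and RPL37B, of which RPL37A and RPL37B were singled out after their values were seen. They rested on 5 (RPL37A) to 38 (RPL18B) spanning reads per Control-AA library. Among the 29 genes with at least 20 reads in every library, RPL26B (YGR034W), whose protein lies at the exit of the peptide tunnel, was spliced in 98.5% and 100% of reads in Control-AA and 94.7% and 90.8% in Nab2-AA. RPL6B (YLR448W) was spliced in 97.7% and 98.7% of reads in Control-AA and 96.4% and 97.9% in Nab2-AA, and RPL13B in 92.6% and 97.0% of reads in Control-AA and 92.0% and 87.0% in Nab2-AA. These 3 stood highest in Control-AA, and all of their Control-AA values were above 92%. The lowest of the 29 were the other copies of the first and the last of them, with RPL31B. RPL26A (YLR344W) was spliced in 55% and 45.2% of reads in Control-AA and 56.1% and 69.4% in Nab2-AA. RPL13A (YDL082W) was spliced in 51.6% and 60% of reads in Control-AA and 47.7% and 37.9% in Nab2-AA. RPL31B (YLR406C), a tunnel-exit protein gene, was spliced in 56% and 63.3% of reads in Control-AA and 56.9% and 44.8% in Nab2-AA. In Control-AA the values of RPL13A overlapped those of both other genes, while both values of RPL26A lay below both of RPL31B.

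The genes with most spanning reads included RPL16B, RPL16A, RPL19B, RPL13B and RPL20A. RPL16B (YNL069C) had 1280 reads and was spliced in 95% and 93.1% of reads in Control-AA and 90.6% and 91.3% in Nab2-AA. RPL20A (YMR242C) had 633 reads and was spliced in 82.4% and 87.3% of reads in Control-AA and 80.5% and 78.6% in Nab2-AA. RPL39 (YJL189W), which codes for a very small protein lining the tunnel and has no second copy, was spliced in 70% and 66.7% of reads in Control-AA and 66.7% and 66.7% in Nab2-AA, on 6 to 21 reads per library. RPP1B (YDL130W), which codes for an acidic protein of the stalk that recruits translation factors, was spliced in 68.4% and 86.5% of reads in Control-AA and 65.8% and 59.1% in Nab2-AA. In RPP1B both Nab2-AA values lay below both Control-AA values, but the Control-AA libraries differed more from each other than the lower of them differed from either Nab2-AA library.

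Other genes with many reads lay between these extremes. RPL17A was spliced in 94.6% and 93.9% of reads in Control-AA and 91.6% and 92.9% in Nab2-AA, and RPL27A in 83.1% and 93.5% of reads in Control-AA and 84.4% and 82.5% in Nab2-AA. RPL14A was spliced in 78.2% and 79.7% of reads in Control-AA and 70.6% and 76.5% in Nab2-AA, and RPL20B in 89.7% and 79.3% of reads in Control-AA and 69.7% and 70.8% in Nab2-AA. In RPL17A, RPL14A and RPL20B both Nab2-AA values lay below both Control-AA values, and in RPL27A they overlapped. RPL23A was spliced in 58.5% and 71.2% of reads in Control-AA and 64.8% and 76.3% in Nab2-AA. RPL23B was spliced in 58.1% and 64.6% of reads in Control-AA and 51.4% and 58.8% in Nab2-AA. RPL34A was spliced in 73.8% and 60% of reads in Control-AA and 62.9% and 76.1% in Nab2-AA. The strains overlapped in these 3 genes. RPL19A, with 76 reads in all, was spliced in 80% and 77.8% of reads in Control-AA and 79.4% and 77.8% in Nab2-AA, so that its 4 libraries lay within a few points of each other.

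**Figure D1:**
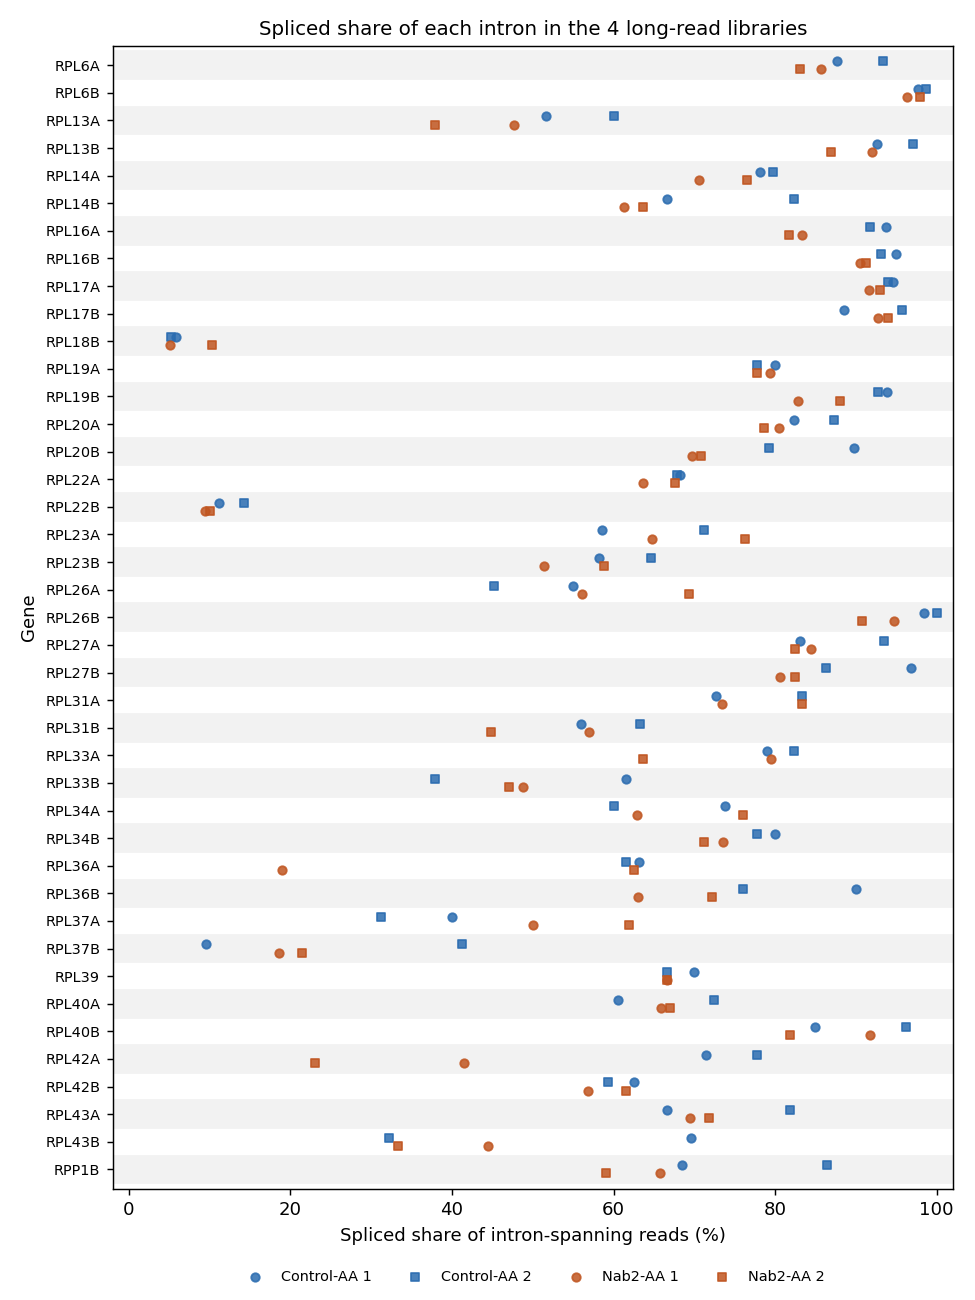
Spliced share of intron-spanning long reads (%, horizontal axis) for 41 of the genes (rows); blue points are the 2 Control-AA libraries and orange points the 2 Nab2-AA libraries (circle, replicate 1; square, replicate 2). RPL18B and RPL22B stand at the left in all 4 libraries, at 14.3% or less, while RPL22A lies above 63%.

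Intron length, from 238 to 561 nt, showed almost no relation to the mean share spliced in Control-AA across the 42 genes (Pearson's r = 0.0400, Spearman's rho = -0.0269). The length of coding sequence after the intron, from 150 to 596 nt, had r = 0.274 and rho = 0.355. Genes with more spanning reads were more often spliced (r = 0.489 with log10 of the reads, rho = 0.573). The share of reads ending beyond the gene in Control-AA ran the other way (r = -0.649, rho = -0.642). These are descriptions across genes, which are not replicates, and the last of them sets measures from the same reads against each other.

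Nab2-AA and Control-AA were first compared by the spliced share. The long reads hold no library from before rapamycin, and the strains also differ in mating type and tag. The part of Nab2 withdrawal in their differences was thus not tested. In SMIT before rapamycin, without replicates, RPP1B was at 0.964 in Nab2-AA and 0.980 in Control-AA. RPL23A was at 0.991 in Nab2-AA and 0.996 in Control-AA. Pooled over the 42 introns, it was 81.5% and 82.9% in Control-AA (95% exact binomial intervals 79.7% to 83.2% and 81.4% to 84.2%) and 74.5% and 76.4% in Nab2-AA (73.4% to 75.6% and 74.6% to 78.2%). Both Nab2-AA libraries lay below both Control-AA libraries, with means of 75.5% ± 1.37 and 82.2% ± 0.957 (SD, n = 2). With equal weight per intron the shares were 71.2% and 72.4% in Control-AA and 65.8% and 67.1% in Nab2-AA. The other ribosomal protein introns went from 85.6% ± 0.464 in Control-AA to 75.7% ± 0.211 in Nab2-AA, and the introns of other genes from 51.3% ± 1.41 to 42.4% ± 0.301. With 2 libraries against 2, an exact two-sided permutation test cannot go below p = 0.3333.

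Of the 42 introns 2 fell in Nab2-AA by edgeR's quasi-likelihood test of the strain by splicing interaction, RPL16A and RPL19B, and 0 rose; over the 198 introns tested, 5.56% were called lower and 0% higher. The intron of RPL16A (YIL133C, chromosome IX, 99096 to 99385, minus strand, after 31 nt of coding sequence) was spliced in 93.8% and 91.7% of reads in Control-AA and 83.3% and 81.7% in Nab2-AA. The groups did not overlap, and the odds of splicing fell (log2 odds ratio -1.35 ± 0.36 (SE), edgeR adjusted p = 0.00937). The intron of RPL19B (YBL027W, chromosome II, 168425 to 168808, plus strand, after 2 nt of coding sequence), whose protein reaches from the tunnel exit to the small subunit, was spliced in 93.8% and 92.8% of reads in Control-AA and 82.8% and 88.1% in Nab2-AA. Again the groups did not overlap (log2 odds ratio -1.33 ± 0.42 (SE), edgeR adjusted p = 0.0370). At an unadjusted p under 0.05 there were 8 of the 42, all lower, a share near the 18.2% of all introns tested that were lower at this p. RPL26B, at the values given above, did not pass (log2 odds ratio -3.17 ± 1.12 (SE), edgeR adjusted p = 0.0626).

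In all, 35 of the 42 introns had a log2 odds ratio below 0 with the library sizes taken as counted, where 146 of all 198 introns did. The median was -0.50 against -0.53 over all 198 introns. With TMM factors, which set the shift over all introns near 0 (median 0.11), the listed median turned to 0.17. Of the 42, 15 then lay below 0 and 27 above, where 110 of all 198 introns lay above. Both Nab2-AA libraries were below both Control-AA libraries in 20 of 42, a share near the 41.9% of all introns. They were above in 2, RPL26A and RPL37A, and overlapped in 20. RPL37A had only 5 and 16 spanning reads in Control-AA. In RPL26A the closest values were 55% on 20 reads in Control-AA and 56.1% on 114 reads in Nab2-AA. By place in the subunit and with counted library sizes, 14 of 16 introns of genes for early-joining proteins had a value below 0 (median -0.73, 1 called). Around the tunnel exit it was 7 of 11 (median -0.12, 1 called), and in the remaining genes 14 of 15 (median -0.43, 0 called). Beside the list it was 10 of 11 in other large-subunit genes (median -0.96, 4 called) and 30 of 35 in small-subunit genes (median -0.66, 3 called). In genes for other proteins it was 71 of 110 (median -0.40, 2 called).

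The calls for splicing were sensitive to the setting. DESeq2 and the replicate block called 0 of the 42, limma called RPL16A, RPL19B and RPL42A, and without 1 library 0 to 3 were called: 0 without either Control-AA library or the first Nab2-AA library, and 3 without the second Nab2-AA library. After chimeric reads and those ending over 250 nt out were left aside, 0 of 42 passed and the median over the 42 was 0.02. The log2 odds ratio of RPL16A was then -0.84 and that of RPL19B 0.0036 (edgeR adjusted p = 0.697 and 1). In reads ending 0 to 250 nt past the coding end alone, the listed median was -0.52 (41 tested). In those ending over 250 nt out alone it was 0.57 (33 tested), and 0 passed in either. Among the reads of RPL16A that ended over 250 nt out, 0 of 11 were spliced in Control-AA, which allows a share of up to 27.3%. In Nab2-AA it was 51 of 116 (44.0%).

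Reads that ended far past the gene were more frequent in Nab2-AA. Such a read is one whose 3' end was placed more than 250 nt downstream of the last coding base. Pooled over the 42 genes this was the case for 9.68% and 10.0% of reads in Control-AA and 21.7% and 19.8% in Nab2-AA, with means of 9.86% ± 0.263 and 20.8% ± 1.29 (SD, n = 2). The groups did not overlap. Of the 42 genes, 20 rose and 0 fell by the same edgeR test; over the 226 genes tested 27.4% were called higher and 0.442% lower. With another 6, 26 of the 42 were higher at an unadjusted p under 0.05, where the share over all genes tested was 36.3%. The median log2 odds ratio was 1.43 over the 42 and 1.34 over all genes. It was 1.38 and 1.12 with genes at 0 in both Control-AA libraries set against 3 Control-AA reads. Both Nab2-AA libraries were above both Control-AA libraries in 32 genes, where the share over all genes tested was 58%.

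The early-joining proteins held 9 of the 20 genes that rose. RPL16A reads ended beyond the gene in 4.62% and 3.11% of reads in Control-AA and 21.4% and 20.3% in Nab2-AA, and the groups were far apart (log2 odds ratio 2.78 ± 0.36 (SE), edgeR adjusted p = 4.67e-12). RPL16B had 3.50% and 3.77% of reads in Control-AA and 9.04% and 10.5% in Nab2-AA (log2 odds ratio 1.45 ± 0.37 (SE), edgeR adjusted p = 8.95e-04). RPL18B had 5.56% and 15.8% of reads in Control-AA and 38.5% and 38.1% in Nab2-AA. In these 3 genes no Nab2-AA value overlapped a Control-AA value, and RPL18B rose as well (edgeR adjusted p = 0.00214). RPL6A had 4% and 2.80% of reads in Control-AA and 11.2% and 10% in Nab2-AA (log2 odds ratio 1.81 ± 0.53 (SE), edgeR adjusted p = 0.00769). RPL13B had 1.05% and 1.19% of reads in Control-AA and 4.90% and 5.43% in Nab2-AA (adjusted p = 0.0197). Among the rest of this group, RPL14A, RPL20B and RPL33B rose as well, to 28.0% ± 9.98, 34.6% ± 2.73 and 27.6% ± 5.78 from 15.4% ± 1.21, 14.8% ± 6.43 and 3.33% ± 4.71 (SD, n = 2; adjusted p = 0.00384, 0.00230 and 0.0224).

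Around the tunnel exit 4 of 11 genes rose. RPL19B had 2.59% and 5.26% of reads in Control-AA and 15.6% and 15.7% in Nab2-AA (log2 odds ratio 2.1 ± 0.40 (SE), edgeR adjusted p = 7.94e-06). RPL17A, whose protein lies at the rim of the tunnel, had 2.08% and 3.65% of reads in Control-AA and 10.3% and 3.23% in Nab2-AA, so that its groups overlapped although it passed (adjusted p = 0.0292). RPL19A had 0 such reads of 37 in Control-AA, which allows a share of up to 8.11%, and 17.1% and 22.2% in Nab2-AA. RPL26B had 0 of 155 in Control-AA, which allows up to 1.94%, and 3.19% and 4.62% in Nab2-AA. Set against 3 reads over both Control-AA libraries, the pooled Nab2-AA shares were 2.24-fold higher in RPL19A (8 of 44 reads) and 1.84-fold higher in RPL26B (9 of 253). Counting error in Nab2-AA is left out of these ratios, so they are not lower bounds. Both genes passed (edgeR adjusted p = 0.0368 and 0.0161). The remaining genes held 7 that rose. RPP1B had 15.8% and 10.8% of reads in Control-AA and 32.4% and 36.4% in Nab2-AA (log2 odds ratio 1.78 ± 0.66 (SE), edgeR adjusted p = 0.0289). RPL34A had 30.2% and 30.5% of reads in Control-AA and 50.6% and 60.9% in Nab2-AA (log2 odds ratio 1.35 ± 0.34 (SE), edgeR adjusted p = 0.00122). Neither gene had overlapping groups.

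RPL23A and RPL23B, which code for a protein of the surface between the subunits, rose together. RPL23A had 9.09% and 6.76% of reads in Control-AA and 20.2% and 20% in Nab2-AA, and RPL23B had 16.3% and 12.5% of reads in Control-AA and 32.2% and 35.3% in Nab2-AA (adjusted p = 0.0130 and 0.00344). RPL40A codes for ubiquitin fused to a ribosomal protein and had 27.9% and 14.1% of reads in Control-AA and 33.6% and 35.8% in Nab2-AA (log2 odds ratio 1.07 ± 0.30 (SE), edgeR adjusted p = 0.00364); with TMM factors, which move the median of all genes from 1.34 to 0.13, its value turned to -0.17. RPL27A and RPL43A rose from 1.51% ± 0.145 and 8.44% ± 5.20 to 5.82% ± 1.01 and 28.8% ± 7.84 (adjusted p = 0.0297 and 0.0454). RPL6B did not pass, with 20.2% and 25.8% of reads in Control-AA and 24.2% and 22.9% in Nab2-AA (log2 odds ratio 0.0077 ± 0.29, SE). Its reads ended at a median of 248 nt past the coding end, next to the limit of 250 nt, and 88 of its 148 reads beyond that limit ended by 300 nt. In RPL13A 226 of 239 reads (94.6%) ended within the coding span of the reference. Both strains carry the tag on this gene, whose part in this was not tested, and its share beyond the gene is not comparable with that of RPL13B.

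**Figure D2:**
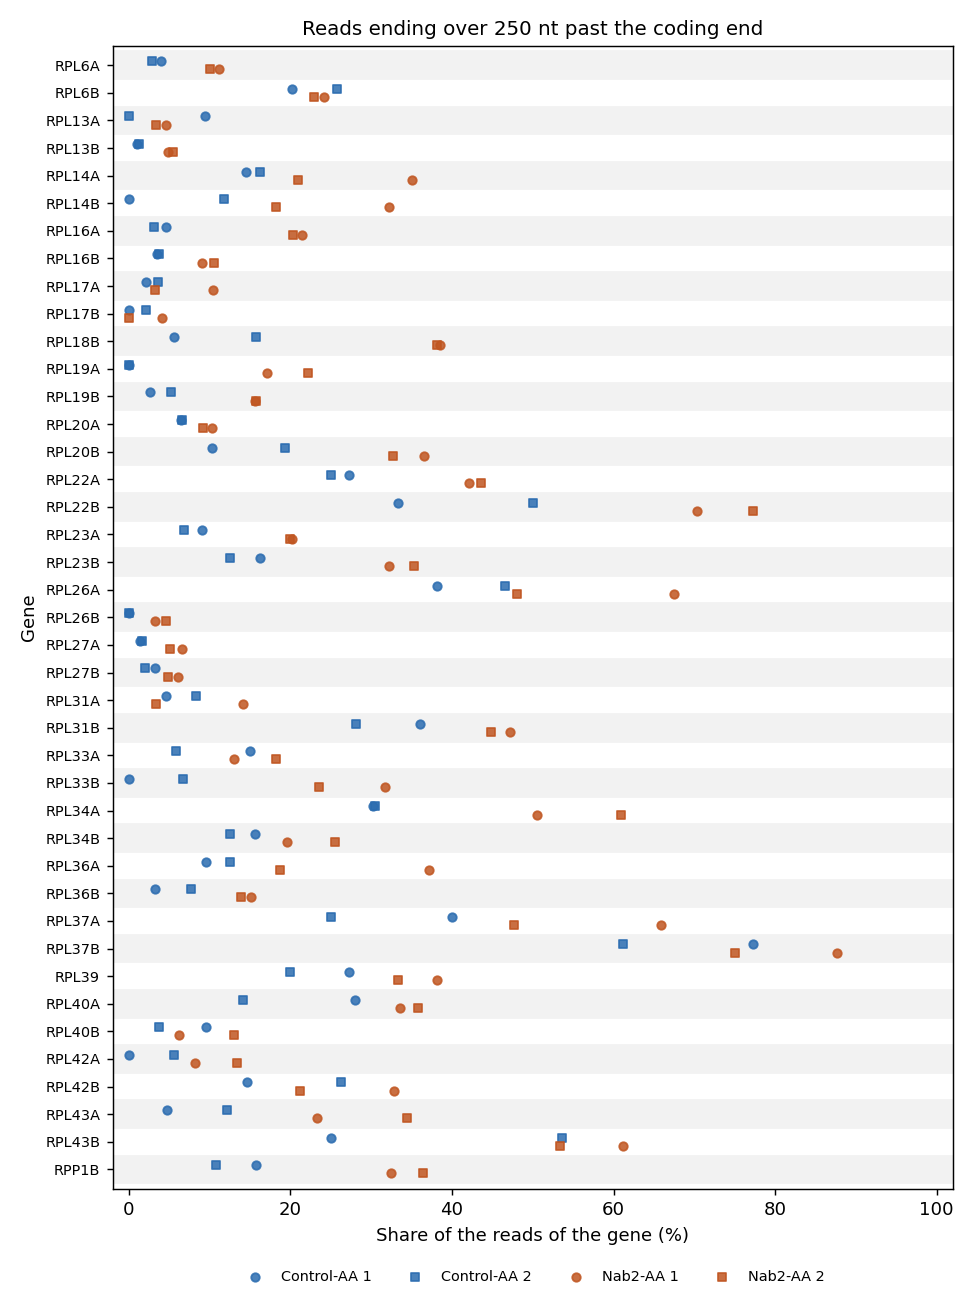
Share of the long reads of each gene that ended over 250 nt past the coding end (%, horizontal axis), with genes in rows and libraries marked as in the plot of splicing by gene (blue, Control-AA; orange, Nab2-AA). The plot holds 41 of the genes. Orange points lie to the right of blue points in all but 10 of them, and RPL6B is among those 10.

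The number of calls for read ends changed with the libraries used. It was 1 without the first Control-AA library (RPL16A), 0 without the second, 4 without the first Nab2-AA library and 0 without the second, and DESeq2 called 2 (RPL16A and RPL19B). TMM factors left RPL16A higher and RPL6B lower. The listed median was then 0.21, with 27 of 42 above 0, where 126 of all 226 genes lay above 0. Without the first Nab2-AA library the log2 odds ratio fell to 0.11 in RPL17A and 0.52 in RPL14A, and without the second Control-AA library to 0.42 in RPL40A.

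Whether a transcript was spliced followed where it ended. Of reads of the 42 genes that ended 0 to 250 nt past the coding end, 92.4% and 93.2% were spliced in Control-AA and 90.9% and 91.5% in Nab2-AA. Of reads that ended further out, 29.3% and 32.9% were spliced in Control-AA and 31.9% and 35.5% in Nab2-AA. Reads that ended within the coding span were spliced in 43.7% and 41.1% of cases in Control-AA and in 43.0% and 36.5% in Nab2-AA. Near the coding end both Nab2-AA libraries lay below both Control-AA libraries, by 1.56 points on average, and in the other ranges the strains overlapped. The share of spanning reads in the far range was 9.55% and 10.0% in Control-AA and 21.6% and 19.8% in Nab2-AA. Reads ending in the near range may be finished transcripts left after poly(A) depletion as well as RNA still held by polymerase, and the 2 cannot be told apart here.

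In finer steps the spliced share peaked where most reads ended and then fell. At 51 to 100 nt it was 95.1% and 96.5% in Control-AA and 96.2% and 96.1% in Nab2-AA. At 201 to 250 nt it was 76.6% and 81.0% in Control-AA and 59.5% and 67.3% in Nab2-AA, and at 251 to 300 nt 58.8% and 60.3% in Control-AA and 44.2% and 52.6% in Nab2-AA. Both Nab2-AA libraries lay below both Control-AA libraries in these last 2 steps. At 401 to 600 nt the share was lowest, with 17.9% and 10.2% in Control-AA and 17.1% and 15.9% in Nab2-AA, and beyond 1000 nt it stood at 20.5% and 43.6% in Control-AA and 45.6% and 48.2% in Nab2-AA. The reads beyond 1000 nt numbered 94 in Control-AA and 633 in Nab2-AA. Of these 727 reads 44.7% were spliced, and RPL26A (54 of 91), RPL34A (53 of 78) and RPL16A (41 of 73) gave the most.

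**Figure D3:**
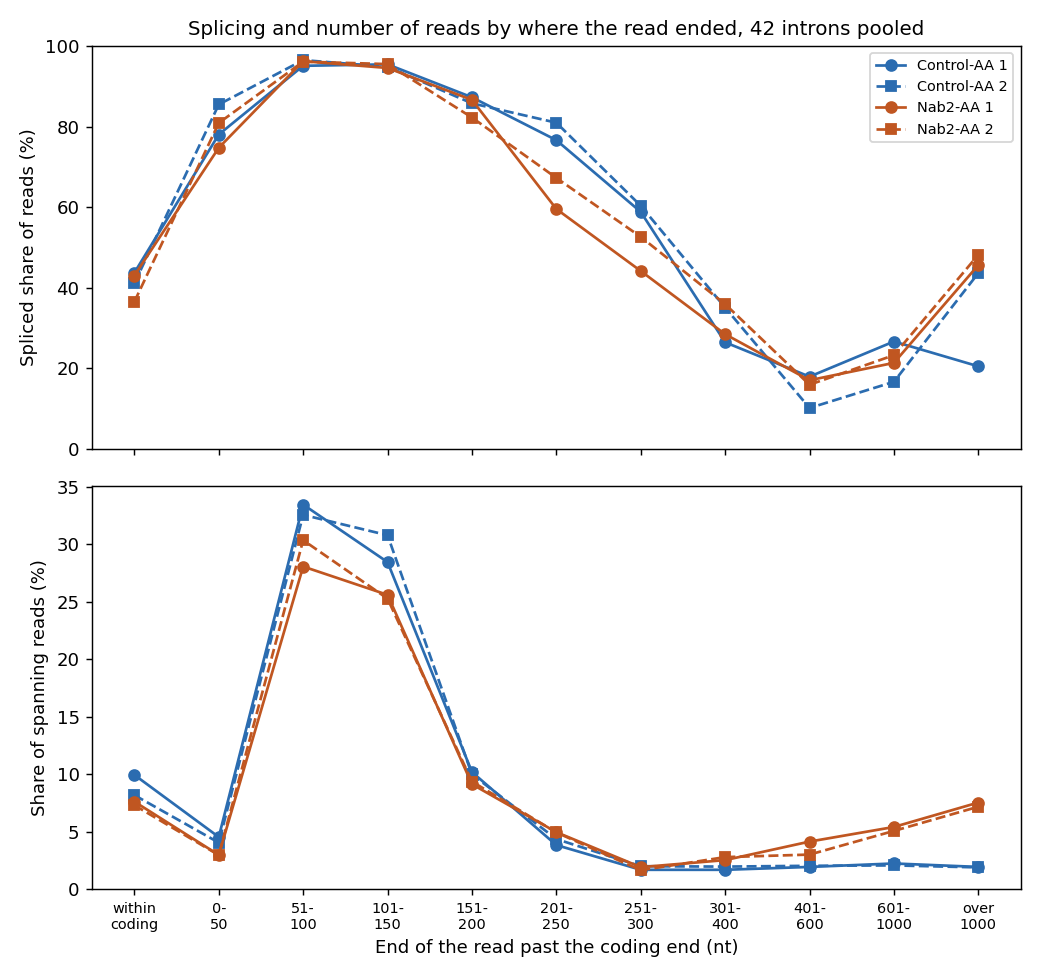
Spliced share (%, upper panel) and share of all spanning reads of the library (%, lower panel) by the distance of the read's 3' end from the coding end in nt, with the 42 introns pooled; each line is 1 library (blue, Control-AA; orange, Nab2-AA; solid, replicate 1; dashed, replicate 2). The spliced share is above 94% at 51 to 150 nt in every library and at most 17.9% at 401 to 600 nt.

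The fall with distance was tested intron by intron within libraries, reads ending over 250 nt past the coding end against reads ending 0 to 250 nt past it. Of the 36 listed introns with enough reads, 35 were spliced less often in the far reads by edgeR, where 68.7% of the 134 introns tested were called lower. RPL13B (YMR142C) was spliced in 567 of 578 near reads and 3 of 22 far reads (log2 odds ratio -8.04 ± 0.91, SE; adjusted p = 9.39e-17). RPL27A was spliced in 446 of 470 and 2 of 23 (log2 odds ratio -7.14 ± 0.90 (SE), edgeR adjusted p = 3.75e-14). In both genes over 94% of near reads and under 14% of far reads were spliced. Without the first Nab2-AA library, which held most reads, only 27 listed introns could be tested. Their median log2 odds ratio was -4.37, against -4.32 over the 36 in the main fit. Among the 30 genes with at least 20 far reads, 27 had less than 50% of them spliced. The exceptions were RPL6B with 95.3%, RPL17A with 76.5% and RPL34A with 53.7%.

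The intron of RPL22B (YFL034C-A) was the only one of the 36 that did not pass, with 3 of 33 near reads and 10 of 85 far reads spliced (log2 odds ratio 0.31 ± 0.90, SE; adjusted p = 0.778). The strains did not run the same way: in Control-AA 3 of 12 near and 0 of 10 far reads were spliced, and in Nab2-AA 0 of 21 near and 10 of 75 far reads. Rpl22 protein is known to bind this intron and to block its splicing. RPL18B passed with a low level throughout, 11 of 79 near reads against 1 of 58 far reads (adjusted p = 0.0333). RPP1B was spliced in 97 of 108 near and 5 of 39 far reads, and RPL39 in 26 of 27 and 2 of 15. Both lost most of their spliced share past 250 nt (adjusted p = 3.52e-10 and 3.71e-05). Compared between strains within a single range, 0 listed introns passed in the near reads (41 tested) and 0 in the far reads (33 tested).

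**Figure D4:**
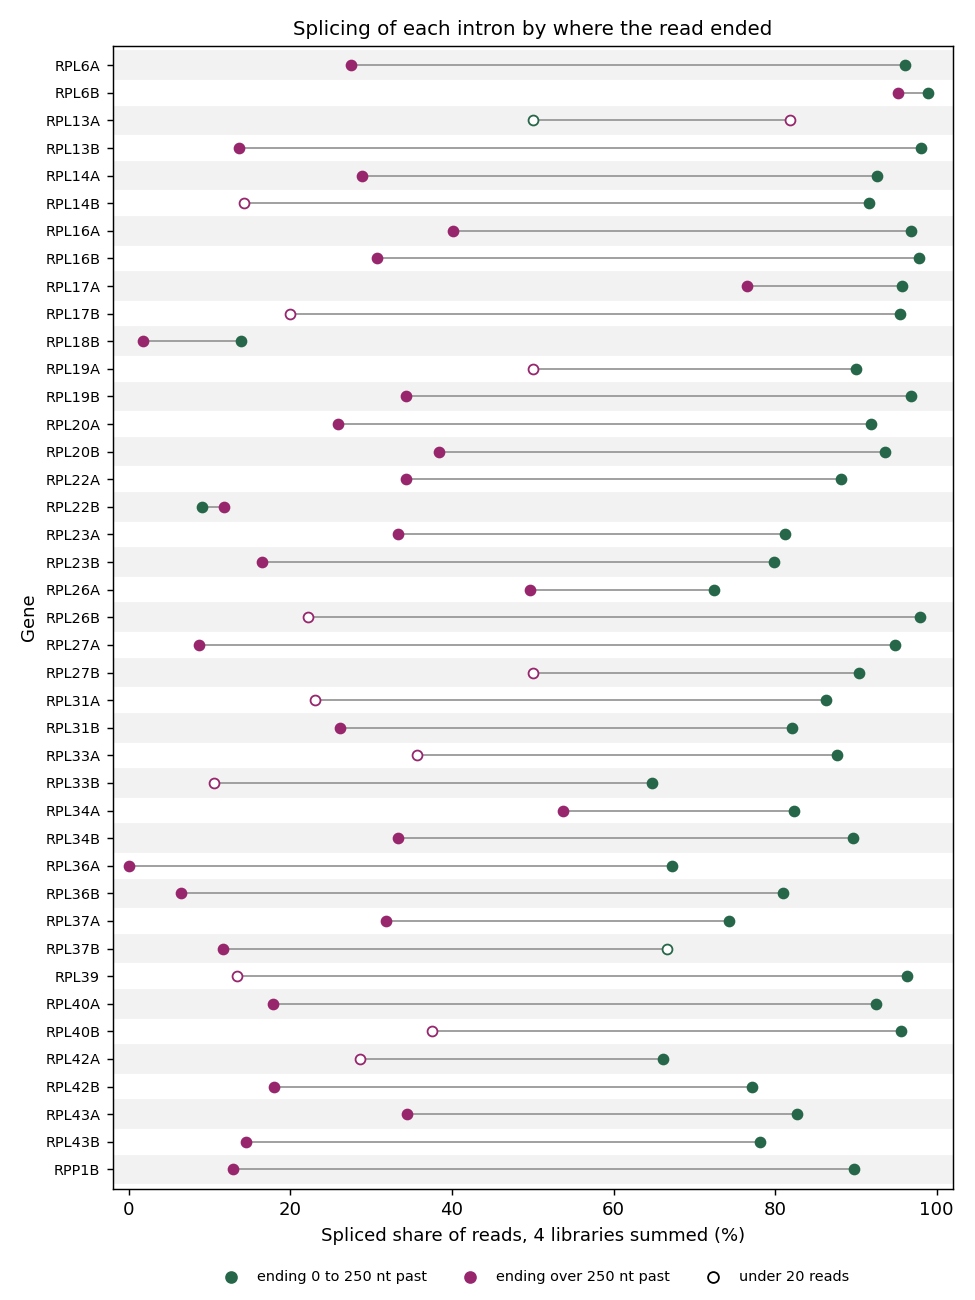
Spliced share (%, horizontal axis) of 41 of the introns in reads ending 0 to 250 nt past the coding end (green) and over 250 nt past it (purple), summed over the 4 libraries, joined by a line; open points rest on under 20 reads. The purple point lies left of the green point in all plotted genes but RPL13A and RPL22B.

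Readthrough reads reached named neighbours on the same strand. The share of reads of the 42 genes that overlapped a downstream gene by at least 50 nt was 1.62% and 2.36% in Control-AA and 6.71% and 6.59% in Nab2-AA, so the groups did not overlap. RPL26A gave more of these 680 reads than any other gene, 118 into YLR345W, of which 4 and 17 came from Control-AA and 73 and 24 from Nab2-AA. RPL22B followed with 80 into MOB2, which codes for an activator of a polarity kinase, RPL20B with 73 into DGK1, a diacylglycerol kinase, and RPL22A with 67 into BMT6, an rRNA methyltransferase. RPL34A had 47 into FCY2, a purine and cytosine permease. The RPL22B reads numbered 3 and 6 in Control-AA and 55 and 16 in Nab2-AA, those of RPL20B 3 and 12 against 42 and 16, and those of RPL22A 6 and 7 against 37 and 17. Library sizes differ, so these are numbers of reads and not rates. RPL18B lies upstream of the small-subunit gene RPS19B and gave 28 reads into it.

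Some of these reads covered the introns of both genes. Of 66 reads that spanned the introns of RPL22B and MOB2, 52 had neither spliced, 9 only that of RPL22B, 5 only that of MOB2 and 0 both. All 9 reads over RPL18B (YNL301C) and RPS19B had neither spliced. In the 5 reads over RPL19B and LSM2, which codes for a subunit of the Lsm ring, both introns were spliced in 1, that of RPL19B alone in 2 and neither in 2.

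Chimeric reads, which began in an upstream gene on the same strand and ran into the listed gene by at least 50 nt in each, were rare on these genes. They made up 0.688% and 0.478% of reads in Control-AA (95% exact binomial intervals 0.376% to 1.15% and 0.262% to 0.801%) and 1.37% and 1.46% in Nab2-AA (1.10% to 1.69% and 1.02% to 2.04%). The groups did not overlap. Of the 149 chimeric reads 94 lay on RPL17A, RPL34A, RPL36A and RPL42A, of which RPL36A and RPL42A were singled out after their values were seen, and 23 of the 42 genes had none. RPL17A, downstream of PRS1, which makes a nucleotide precursor, had 2.08% and 1.46% of reads in Control-AA and 8.62% and 7.53% in Nab2-AA. RPL42A, downstream of YNL162W-A, had 22.2% and 5.56% of reads in Control-AA and 32.7% and 33.3% in Nab2-AA, on 9 and 18 Control-AA reads. RPL34A, downstream of HMF1, had 4.65% and 5.08% of reads in Control-AA and 6.67% and 10.9% in Nab2-AA. RPL36A, downstream of the mitochondrial ribosomal gene MRPL24, had 14.3% and 12.5% of reads in Control-AA and 25.6% and 6.25% in Nab2-AA. The strains did not overlap in RPL17A, RPL42A and RPL34A, and overlapped in RPL36A.

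Of the 9 listed genes with enough chimeric reads to test, 0 passed by edgeR, where 10.7% of the 84 genes tested were called higher. RPL17A was the only one of the 9 at an unadjusted p under 0.05, where 20.2% of all genes tested were higher at this p (log2 odds ratio 2.31 ± 0.91 (SE), edgeR adjusted p = 0.0843), and limma called it. DESeq2 called 0. RPL34B had 0 chimeric reads of 109 in Control-AA, which allows up to 2.75%, and 6 of 183 in Nab2-AA. In RPL42A, whose intron was spliced in 71.4% and 77.8% of reads in Control-AA and 41.5% and 23.1% in Nab2-AA, 42.5% of unspliced reads and 0% of spliced reads began over 100 nt upstream of the start codon. The drop in the spliced share of RPL42A did not pass (log2 odds ratio -2.43 ± 0.87 (SE), edgeR adjusted p = 0.0667).

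Paralogs were then set against each other within libraries. Of the 20 pairs 15 differed in the odds of splicing by edgeR, where 70% of the 40 ribosomal protein pairs tested were called. Copy A was the more spliced in 7 of the 15 and copy B in 8, and in 12 of the 15 the order was the same in all 4 libraries. Without the second Control-AA library 9 pairs were called, and RPL33 and RPL43 were among those lost, at 1.41 and 0.75 (adjusted p = 0.0677 and 0.279).

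In RPL26 copy B was the more spliced in every library (log2 odds ratio of copy A against copy B -5.19 ± 0.43 (SE), edgeR adjusted p = 1.83e-23). RPL22A (YLR061W) was spliced in 68.2% and 67.9% of reads in Control-AA and 63.6% and 67.6% in Nab2-AA, and RPL22B in 11.1% and 14.3% of reads in Control-AA and 9.41% and 10% in Nab2-AA (log2 odds ratio of copy A against copy B 3.91 ± 0.50 (SE), edgeR adjusted p = 4.07e-12). In RPL13, copy A carries the anchor, and copy B was the more spliced in all 4 libraries (log2 odds ratio of copy A against copy B -3.77 ± 0.31 (SE), edgeR adjusted p = 1.74e-23). Nearly all reads of RPL13A ended within the coding span and nearly all of RPL13B past it, so the copies were not read over the same range. RPL6B was more spliced than RPL6A, which had 87.7% and 93.3% of reads in Control-AA and 85.7% and 83.1% in Nab2-AA (log2 odds ratio of copy A against copy B -2.45 ± 0.40 (SE), edgeR adjusted p = 2.30e-08). The order held in every library.

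RPL40B was more spliced than RPL40A (log2 odds ratio of copy A against copy B -2.15 ± 0.40 (SE), edgeR adjusted p = 1.22e-06), with 85% and 96.2% of reads in Control-AA and 91.8% and 81.8% in Nab2-AA against 60.6% and 72.4% of reads in Control-AA and 65.9% and 67.0% in Nab2-AA. RPL33A was more spliced than RPL33B (log2 odds ratio of copy A against copy B 1.95 ± 0.48 (SE), edgeR adjusted p = 1.53e-04), with 78.9% and 82.4% of reads in Control-AA and 79.5% and 63.6% in Nab2-AA against 61.5% and 37.9% of reads in Control-AA and 48.8% and 47.1% in Nab2-AA. The 4 libraries agreed in order in both pairs. RPL43A was more spliced than RPL43B (log2 odds ratio of copy A against copy B 1.69 ± 0.40 (SE), edgeR adjusted p = 1.04e-04), with 66.7% and 81.8% of reads in Control-AA and 69.4% and 71.9% in Nab2-AA against 69.6% and 32.1% of reads in Control-AA and 44.4% and 33.3% in Nab2-AA, and here the first Control-AA library went the other way. The other called pairs were RPL16, RPL19, RPL23, RPL31, RPL34, RPL36 and RPL37, with sizes from 0.59 (RPL23) to 1.66 (RPL36) on the log2 scale. Of these, RPL31 passed whichever library was left out, and RPL19 and RPL23 passed in none of those fits. RPL16 did not pass without either Control-AA library. Without the first Nab2-AA library the log2 odds ratio of RPL36 went from -1.66 to -1.01 and that of RPL34 from -0.71 to -0.28, and without the first Control-AA library that of RPL37 went from 1.48 to 0.84, with none of these passing. RPL34 also did not pass without the second Control-AA library, at -0.50, and RPL37 then stood at 2.46. RPL14, RPL17, RPL20, RPL27 and RPL42 did not pass. The approximate 95% intervals of their log2 odds ratios (from their standard errors) ran from -0.062 to 1.04 in RPL20 and from -0.71 to 0.93 in RPL27. They were wider in RPL14 (-0.52 to 1.43), RPL17 (-1.15 to 1.34) and RPL42 (-1.10 to 0.88), so that the copies are not shown to be alike.

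Part of the paralog differences moved with where reads ended. Leaving aside chimeric reads and those ending over 250 nt out, 7 of the 20 pairs passed, where 42.5% of the 40 pairs were called, among them RPL6, RPL13, RPL19, RPL22, RPL26 and RPL33, and all 15 pairs called on all reads kept their direction. RPL22 was then at 6.69, while RPL40 went from -2.15 to -1.05 and RPL43 from 1.69 to 0.32, with adjusted p of 0.102 and 0.682. RPL31 went from 1.37 to 0.28 and RPL37 from 1.48 to 0.34, and neither passed (edgeR adjusted p = 0.682 and 0.817). In Control-AA, RPL40A ended beyond the gene in 21.0% ± 9.76 of reads and RPL40B in 6.61% ± 4.12; RPL43B did so in 39.3% ± 20.2 and RPL43A in 8.44% ± 5.20. In both pairs the copy with more such reads was the less spliced. The copy with more spanning reads was the more spliced in 15 of the 20 pairs and in 10 of the 15 that differed. RPL40 was one of the other 5, with 3.30 and 3.77 times as many reads on copy A in Control-AA.

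A change of the paralog difference between the strains passed in 1 of the 20 pairs, RPL26, where 2.5% of the 40 pairs were called (edgeR, difference of the log2 odds ratios, Nab2-AA minus Control-AA, 3.84 ± 1.12, SE; adjusted p = 0.0292). The difference between the copies was smaller in Nab2-AA, with RPL26A above its Control-AA values in both libraries and RPL26B below. DESeq2, limma and the reads within 250 nt gave 0 pairs, and it did not pass without the second Control-AA library or without either Nab2-AA library.

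A second splice junction with at least 5 reads was seen in RPL16A and RPL20A alone. RPL16A had 18 reads (2.37% of its reads with a gap) and RPL20A 7 (1.34%) in which the 5' end of the gap was shifted by 4 nt, in both strains. The main junction held 95.9% and 97.9% of the gapped reads of these genes, and at least 90% in 39 of the 42. It held less in RPL22A (87.8% of 131 gapped reads), RPL33B (87.0% of 54) and RPL22B (86.7% of 15), where the other gaps differed among themselves and none reached 5 reads.

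In SMIT, RPP1B was the only listed gene with positions reaching 200 nt and enough reads in all 14 libraries of the deletion series. Its fraction spliced, averaged over 30 nt bins past the 3' splice site with equal weight per bin, was 0.849 and 0.912 in the wild type. It was 0.690 and 0.936 in npl3Δ, 0.754 and 0.892 in gbp2Δ and 0.790 and 0.936 in rtt103Δ. It was 0.853 and 0.936 in tho2Δ, 0.762 and 0.931 in pub1Δ and 0.712 and 0.884 in htz1Δ. In every group the first value was the lower. The bins with at least 10 reads numbered 17 and 15 in the wild type and 20 and 14 in npl3Δ. These means thus do not cover the same positions in every library. Against the same-numbered wild-type library, gbp2Δ and htz1Δ lay below in both, tho2Δ above in both, and npl3Δ, rtt103Δ and pub1Δ below in the first and above in the second. Over all summed reads, where the few reads far past the splice site count for little, the fraction was 0.946 and 0.971 in the wild type, 0.930 and 0.978 in npl3Δ, 0.896 and 0.952 in gbp2Δ and 0.906 and 0.963 in rtt103Δ. It was 0.952 and 0.977 in tho2Δ, 0.901 and 0.971 in pub1Δ and 0.887 and 0.939 in htz1Δ. On these sums gbp2Δ, htz1Δ and rtt103Δ lay below the same-numbered wild type in both libraries, as did pub1Δ, whose second value equalled it to the digits given; tho2Δ lay above in both. The libraries of the second values share a name prefix in the labels, those of the first values in the deletion strains share another, and the first wild-type library has its own. Only the second values can thus be compared with the wild type within a shared prefix.

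RPP1B passed in none of the 6 strains by edgeR, where 0% of the 48 genes tested were called in each. The log2 odds ratios against the wild type, from the summed reads, were -0.00457 in npl3Δ, -0.90 in gbp2Δ, -0.63 in rtt103Δ, 0.25 in tho2Δ, -0.49 in pub1Δ and -1.16 in htz1Δ, with standard errors of 1.02 to 1.07 and adjusted p of 0.891 to 1. All strains share the same wild-type libraries, and this fit had no term for the replicate number. RPL20A had such positions only in the first libraries of the wild type, gbp2Δ and tho2Δ, at 0.987, 0.980 and 0.988.

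In the anchor-away time course, with 1 library per strain and time and no replicate check, the fraction spliced of RPP1B at 0, 10 and 30 min was 0.980, 0.977 and 0.976 in Control-AA and 0.964, 0.956 and 0.967 in Nab2-AA. That of RPL23A was 0.996, 0.998 and 0.997 in Control-AA and 0.991, 0.995 and 0.995 in Nab2-AA. Both genes stayed above 0.95 in all 6 libraries. The change from 0 min in Nab2-AA minus that in Control-AA was -0.00536 at 10 min and 0.00703 at 30 min in RPP1B (95% counting intervals -0.0265 to 0.0157 and -0.0111 to 0.0251). In RPL23A it was 0.00136 and 0.00126, and 0.00967 and 0.0109 with the authors' corrected fraction, which gave 0.0201 and 0.0161 for RPP1B. The medians over 57 genes were -0.0185 and -0.00813. RPL20A, listed in all of these libraries but Control-AA at 30 min, was between 0.9991 and 0.9997 spliced.

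**Figure D5:**
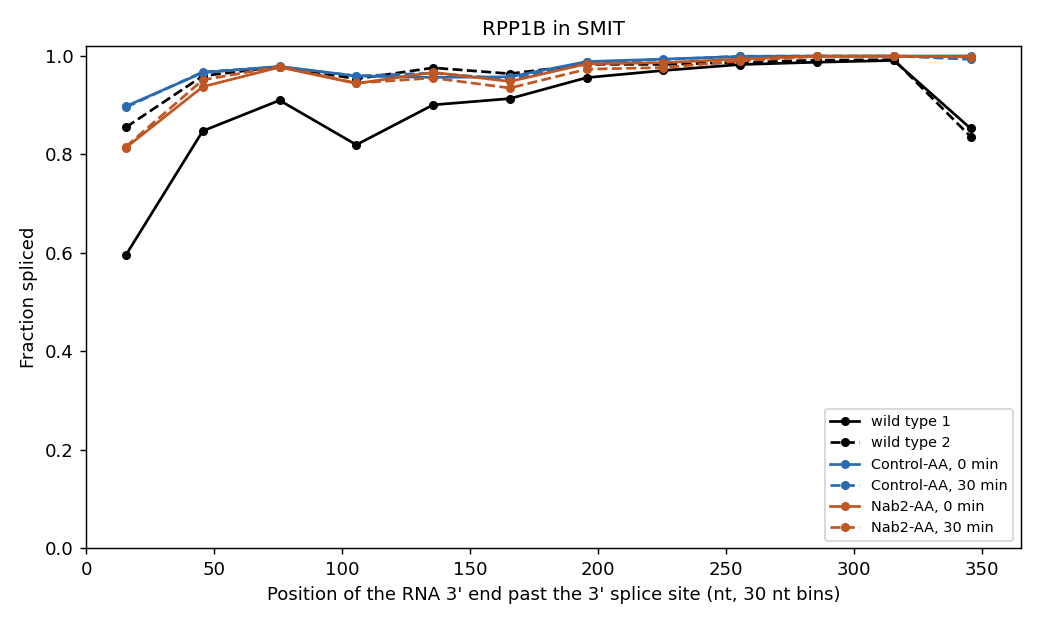
Fraction of RPP1B reads spliced (vertical axis, 0 to 1) by the position of the RNA 3' end past the 3' splice site in nt, in steps of 30 nt (a step with under 10 reads is left out), for both wild-type libraries (black) and for Control-AA (blue) and Nab2-AA (orange) at 0 and 30 min. In the 2 wild-type libraries the fraction went from 0.596 and 0.855 in the first bin to 0.991 and 0.992 in the bin from 301 nt, and was 0.853 and 0.836 in the next.

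For RPP1B both assays can be set side by side. In SMIT 0.988 of its summed reads were spliced in Control-AA and 0.984 in Nab2-AA at 10 min. In the long reads of the same strains and time, summed over both strains, 97 of 108 reads ending near the coding end were spliced. Of those ending further out it was 5 of 39. The SMIT sum takes all 3' ends past the splice site, and the coding end lies 207 nt past that site. It thus does not cover the same range of ends as either long-read count. The assays amplify different molecules, and their levels are given side by side without a test.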

How the data were processed

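Per the labels, nascent RNA from chromatin was sequenced in 20 SMIT libraries and 4 nanopore long-read libraries. The submitters' processing notes name HISAT2 2.1.0, SAMtools 1.9, bedtools 2.29.2, cutadapt 1.9.1, minimap2 2.17 and the build sacCer3, with no roles; whether PCR copies were removed is not given in the sources used here. Per the file headers, the deposited SMIT tables hold, for each position past the 3' splice site, a count of reads and the fraction spliced, raw and corrected by the authors, with the correction not stated. The authors' deposited long-read alignments give block coordinates and a mapping score per read, and a further table of theirs gives the fraction spliced per gene. The authors' tables of differences between SMIT samples were not used here.

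From the alignments, an intron was a gap of 50 to 1100 nt seen in at least 5 reads. It overlapped a gene or lay up to 700 nt upstream of it on the same strand. A read was spliced when both gap ends matched within 10 nt, and unspliced when it covered at least 90% of the intron without a gap. Gene spans came from a RefSeq table of gene names and positions, joined by locus tag. Spliced and unspliced counts, or counts by end or start class, were fitted with edgeR 4.0.16 (quasi-likelihood, 1 term per library, strain by class interaction) over all features with at least 10 reads, and p-values were adjusted by Benjamini-Hochberg over all features tested, with a threshold of 0.05. Paralog pairs were fitted together over 40 pairs, and the test by read end was added after the data were seen. SMIT reads were summed past the 3' splice site for genes with at least 20 reads in every library and positions reaching 200 nt (48 genes). The smallest and largest SMIT totals past the splice site were 699678 and 2839057 reads. Only the strain by class model was run on simulated counts, drawn from the splicing counts with 1 fixed spread. The paralog fit, the comparison of near and far reads and the SMIT fit were not simulated. As alternatives, limma 3.58.1 and DESeq2 1.42.0 were run; scripts used R 4.3.3, Python 3.11.15, pandas 2.3.3 and SciPy 1.17.1.

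Genes are named where they passed a test, were among the 6 with most spanning reads or the 3 highest or lowest in Control-AA, belong to the 8 called pairs with the largest differences, carry the anchor or lack a listed paralog, or appear in SMIT; others are marked as chosen after their values were seen or belong to a count of 5 or fewer. The values of 1 gene and of what needs it are not reported here, although it entered every fit, count and pooled value. The members and lists were chosen with earlier results of these data known. Same-numbered SMIT libraries deviated together (correlations of 0.142 to 0.945 in 21 of 21 pairs over 48 genes). The correlations were 0.672 to 0.945 between deletion strains and only 0.142 to 0.362 with the wild type. The numbers thus pair the deletion libraries, and the wild type only weakly, and the main SMIT fit had no term for them. In the long reads the correlation was -0.0663 for splicing and 0.00024 for ends. Each rests on 1 pair of differences with counting error left in, which can hide a shared effect. These values thus cannot show that the number there carries no pairing. No genome was used here, so no sequences are shown.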

Additional observations from a re-analysis of the deposited data

Results flagged for a closer look

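The difference between the RPL26 copies changed between the strains. RPL26A, the less spliced copy, was spliced in 55% and 45.2% of reads in Control-AA and 56.1% and 69.4% in Nab2-AA, and RPL26B in 98.5% and 100% in Control-AA and 94.7% and 90.8% in Nab2-AA. The change in the log2 odds ratio of copy A against copy B, Nab2-AA minus Control-AA, was 3.843 (edgeR's quasi-likelihood interaction term over 40 pairs, adjusted p = 0.0292). In all Control-AA reads of RPL26B only 1 was unspliced, and RPL26A also gave the most reads into a downstream gene, 118 in all, of which 73 and 24 came from the Nab2-AA libraries; the part of either in the change was not tested.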

How the results depend on the processing

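The 54 results were recomputed under 586 alternatives in all, of which 345 kept direction, call or size. Another 198 were results of single genes that came out weaker, and the remainder fell in neither class. Of the introns, 2 were called lower; 0 were called with DESeq2, TMM, the authors' fractions, the replicate block, the reads neither chimeric nor beyond 250 nt, or (chosen after seeing the data) the near or the far reads alone, 1 without names on both strands, and 0 to 3 without 1 library. Without chimeric and far reads RPL19B was at 0.0036 and RPL16A at -0.84. In far reads alone the fitted value of RPL16A was 6.26, which is no bound, since Control-AA had 0 of 11 such reads spliced. Set against 3 reads of 11, the share in Nab2-AA was 1.61-fold higher, with counting error in Nab2-AA left out. The pooled difference of -6.71 points was -0.867 without chimeric and far reads and -7.68 to -5.74 without 1 library. For read ends the 20 calls became 4 at 400 nt, 2 with DESeq2, 11 with no filter and 15 with the replicate block. With TMM factors only RPL16A was still called higher, RPL6B was called lower, and RPL40A, not called, stood at -0.17. Without 1 library the log2 odds ratio ran from 0.11 to 2.06 in RPL17A and from 0.42 to 1.65 in RPL40A. Limma called 1 chimeric gene. Splicing by read end, tested after seeing the data, gave 21 to 34 calls without 1 library. The 15 paralog calls became 7 without chimeric and far reads and 9 to 13 without 1 library. The RPL26 change between strains gave 0 calls with 10 reads in each library, DESeq2, limma or without chimeric and far reads, and 0 to 1 without 1 library. The cause of these changes was not tested.

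In SMIT the replicate block changed no call for RPP1B (edgeR adjusted p of 0.284 to 0.989). With the library-name prefix as a block npl3Δ turned to 0.22. Without 1 library the log2 odds ratios spanned -0.88 to 0.87 in npl3Δ, -1.43 to 0.46 in pub1Δ, -1.34 to 0.092 in rtt103Δ -0.29 to 0.80 in tho2Δ, -1.50 to -0.29 in gbp2Δ and -1.65 to -0.67 in htz1Δ. With the authors' corrected fraction the difference of changes was 0.0201 for RPP1B at 10 min and 0.0109 for RPL23A at 30 min. In long reads no pairing by replicate number was seen, though counting error can hide one, and in the paralog fit the block gave 14 calls. Depth limits the genes with few reads: 13 of 42 had under 20 spanning reads in some library.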
